A study of Homo sapiens with 15 samples.

Results

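The IDH1R132H line of TF-1, a human erythroleukaemia cell line kept alive by cytokines such as GM-CSF, was compared with its Parental cells by poly(A) RNA sequencing. The members were the 3 IDH1R132H and the 3 Parental libraries, 6 of the 15 libraries in the series, taken by the genotype in their labels. IDH1R132H cells carried a base-edited R132H mutation of IDH1 and grew without GM-CSF. Parental cells were unedited TF-1 and grew with 2 ng/ml of recombinant human GM-CSF, so every comparison with them is one of genotype and of medium at once. The other 9 libraries came from 3 lines with base-edited IDH2, named IDH2R140Q, IDH2R140W and IDH2R172K, which also grew without GM-CSF. They served here to show where the IDH1R132H line differed from edited lines in the same medium. All cells shared the TF-1 background and its leukaemia. The labels do not say whether an edited line is a single clone or a pool, nor whether replicates were separate cultures. The p-values therefore speak only of the spread among these libraries, and that spread may be technical.

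IDH1 encodes the cytosolic enzyme that turns isocitrate into 2-oxoglutarate while making NADPH. The R132H mutant, frequent in glioma and found in acute myeloid leukaemia, turns 2-oxoglutarate into 2-hydroxyglutarate, which inhibits dioxygenases such as the TET enzymes and the JmjC histone demethylases. In marrow progenitors, mutant IDH is known for raised DNA methylation and impaired maturation. TF-1 cells express fetal globin genes and can be driven towards red cell, platelet or monocyte fates, and GM-CSF acts on them through JAK2, STAT5 and the ERK pathway.

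The codon that the labelled edit changes lies in exon 4 of IDH1 (GRCh38 chr2:208248387-208248389, minus strand). It is shown because it is the only intended difference in genotype. The coding strand around it follows, read from the GENCODE 29 transcript IDH1-201, with the arginine codon 132 in capitals.
IDH1: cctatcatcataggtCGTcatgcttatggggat

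Levels were in TPM, a unit that corrects abundance for transcript length and library total. It keeps no read number, so depth is unknown and values carry no counting interval. Of 56624 symbols, 14881 had at least 1 TPM in at least 3 libraries and were tested. Between 12796 and 13792 symbols reached 1 TPM in a library, and each library correlated best with another of its own group across symbols, which are not independent. Parental replicate 2 stood apart, with 19.3% of its TPM in ribosomal protein genes, against 15.4% and 16.4% in the other Parental libraries and 13.8% to 14.1% in IDH1R132H. TF-1 markers CD34, CD33, TAL1 and CSF2RB were expressed, whereas GATA1 and CSF2RA were listed at 0 in all 15 libraries. So were PGK1 and TPI1, glycolytic enzymes that every cell uses. All of these stand on more than 1 row of the table, as did 1118 protein-coding symbols, of which 67.7% were listed at 0 in all libraries, against 7.85% of those on 1 row. A symbol listed at 0 is therefore not taken as absent. Of 16 markers of T, NK and B cells 6 were tested, of which 2 were called higher and 1 lower. Their summed level was 56.7 to 65.0 TPM in IDH1R132H and 72.9 to 96.8 TPM in Parental, and the B cell markers MS4A1 and CD79A were listed at 0. Only 2 of 12 fibroblast and epithelial markers were tested, neither was called, CLDN4 was listed at 0, and their sum was 785 to 793 TPM in IDH1R132H and 610.1 to 648 TPM in Parental. The part of such markers in the results was not tested.

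IDH1 RNA (GRCh38 chromosome 2, 208236227 to 208266074, minus strand) was 38.3, 37.9 and 34.3 TPM in IDH1R132H, against 66.3, 70.7 and 73.9 in Parental. The groups did not overlap, and the IDH1R132H libraries were all lower (log2 difference −0.92 ± 0.09, adjusted p = 3.31e-06, where the error is the SE on the log2(TPM + 1) scale). That is under the 2-fold limit used here for a call, but past it after median-ratio scaling (−1.11) or quantile normalisation (−1.08). Among the IDH2 lines IDH1 averaged 60.3 TPM in IDH2R140Q, 34.6 TPM in IDH2R140W and 37.7 TPM in IDH2R172K, and IDH1R132H was lower than their mean by a small margin (−0.21 ± 0.08, adjusted p = 0.048). IDH2 (chromosome 15, 90083045 to 90102504, minus strand), the mitochondrial enzyme, was 51.8, 56.7 and 48.3 TPM in IDH1R132H, against 52.2, 49.9 and 56.2 in Parental. Those values overlapped and the difference did not pass (−0.01, adjusted p = 0.9). TPM does not show which allele was read, so the edit itself was not checked.

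A call needed a limma adjusted p under 0.05 together with a difference of 2-fold or more in log2(TPM + 1), where changes of low symbols come out too small, and "rose" and "fell" are used of such symbols. Against Parental, 1152 symbols were called higher (7.74% of those tested) and 460 lower (3.09%). After median-ratio scaling the split was 824 higher and 678 lower, since TPM as deposited placed the median symbol 0.16 higher in IDH1R132H. Against the mean of the IDH2 lines, 396 were called higher (2.66%) and 286 lower (1.92%), and the median symbol stood at 0.03. Both comparisons use the same IDH1R132H libraries, so they are not independent, and a difference from the mean of the IDH2 lines need not hold for each line. Groups did not overlap between IDH1R132H and Parental for 36.2% of symbols in the higher direction and 16.2% in the lower. With 3 libraries a group the smallest exact permutation p is 0.10, so each adjusted p rests on a spread that limma shares across symbols and groups.

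**Figure D1:**
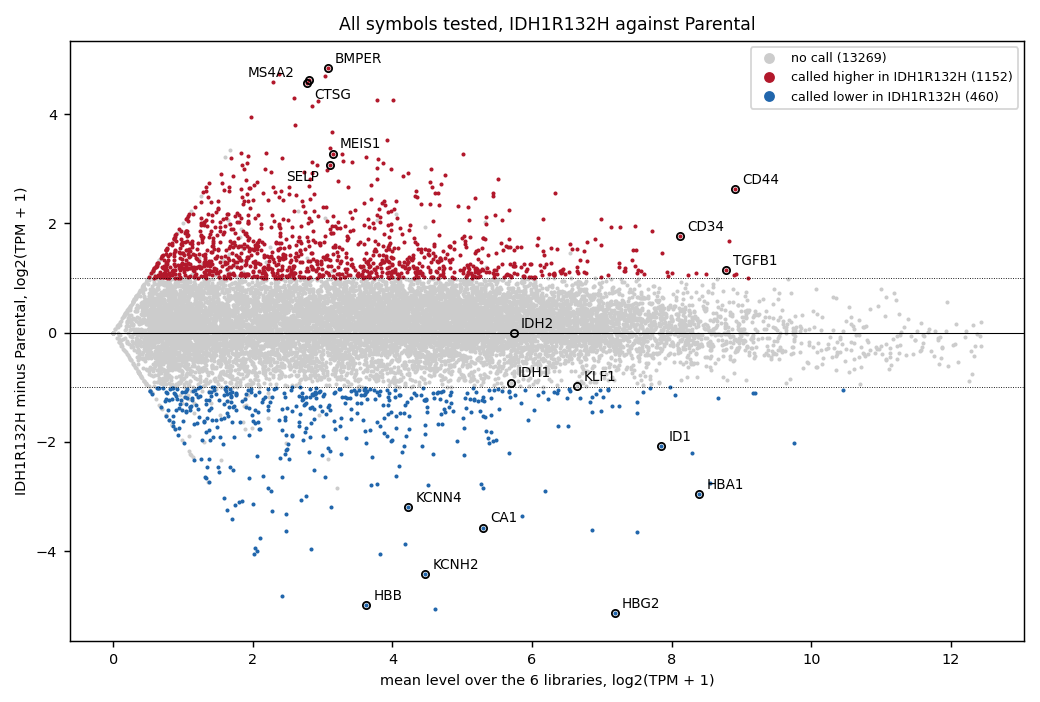
Each point is a symbol tested, with its mean level over the 6 libraries on the horizontal axis and the IDH1R132H minus Parental difference on the vertical axis, both in log2(TPM + 1). Red points are the 1152 symbols called higher and blue points the 460 called lower. HBG2 lies lowest at −5.14, CD44 and CD34 stand out among abundant symbols above the line, and IDH2 lies at −0.01.

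Haemoglobin RNA was far lower in IDH1R132H cells. The summed TPM of the globin list was 280 to 316 in IDH1R132H and 2518 to 3487 in Parental. Of 9 globins tested 8 fell, and the list's median difference was −3.65, against 0.16 for all symbols. HBG2, the main fetal gamma chain (GRCh38 chromosome 11, 5253190 to 5505605, minus strand), was 18.4, 29.9 and 23.7 TPM in IDH1R132H, against 706, 1134 and 801 in Parental. HBB, the adult beta chain (chromosome 11, 5225464 to 5229395, minus strand), was 1.3, 2.19 and 0.44 TPM in IDH1R132H, against 59.7, 75.6 and 71.8 in Parental. HBA1, an alpha chain, was 123, 119.5 and 115 TPM in IDH1R132H, against 842, 1091 and 890.1 in Parental. In each case every IDH1R132H library lay below every Parental library. The differences were −5.14 for HBG2 (36.7-fold lower in mean TPM; adjusted p = 2.76e-10), −4.99 for HBB (52.7-fold lower; 7.96e-10) and −2.96 for HBA1 (7.89-fold lower; 6.41e-11). HBG1 fell by 5.05, the embryonic chains HBE1 and HBZ by 3.76 and 2.85, HBA2 by 3.65, and HBQ1, the theta chain, by 1.46. The exception was HBD, the adult delta chain, at 61.1, 73.6 and 62.8 TPM in IDH1R132H, against 52.4, 59.97 and 59.2 in Parental (0.20, adjusted p = 0.115). HBG1 and HBG2, like HBA1 and HBA2, are near-identical copies, and the annotated HBG2 and HBE1 genes overlap, so the split of reads within each pair is uncertain. As these are bulk samples, fewer cells of a type and less RNA per cell cannot be told apart.

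The edited lines differed among themselves. HBG2 averaged 6.07 TPM in IDH2R140Q, 133 TPM in IDH2R140W and 676 TPM in IDH2R172K, so IDH1R132H lay above IDH2R140Q and below the other two lines. HBB averaged 4.76 TPM in IDH2R140Q, 113 TPM in IDH2R140W and 41.6 TPM in IDH2R172K, and all 9 IDH2 libraries lay above the IDH1R132H range (4.49 to 134 TPM; −3.78 ± 0.18, adjusted p = 2.81e-09 against the mean of the IDH2 lines). Against that mean 6 of 9 globins were called lower and none higher. HBA1 and HBA2 were also below every other library, at −1.27 ± 0.08, adjusted p = 3.30e-08 and −1.86 ± 0.10, adjusted p = 1.63e-08. HBZ stood apart from these. It averaged 3.19 TPM in IDH2R140Q, 5.15 TPM in IDH2R140W and 67.2 TPM in IDH2R172K, and its difference from their mean did not pass (0.30, adjusted p = 0.191).

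Genes for haem, the iron-holding group of haemoglobin, fell in part. Of 17 tested 5 fell and none rose, with a median of −0.50. ALAS2, the erythroid enzyme that starts haem synthesis, was 1.27, 2.79 and 3.06 TPM in IDH1R132H, against 22.3, 17 and 19.6 in Parental. BLVRB, a biliverdin reductase abundant in red cells, was 105, 112 and 107 TPM in IDH1R132H, against 301, 317 and 291 in Parental. Neither pair of groups overlapped, and the differences were −2.65 and −1.48. TMEM14C, a mitochondrial protein needed for haem synthesis, fell by 1.27, and PPOX, a late enzyme of the pathway, by 1.23. ALAS1, the housekeeping form of ALAS2, did not pass (60.1 against 67.3 TPM; −0.16, adjusted p = 0.0844), nor did the haem-degrading HMOX1 (17.6 against 19.2 TPM; −0.12, adjusted p = 0.39). Compared with the IDH2 lines 2 of the 17 were lower, among them ALAS2 (−1.56, adjusted p = 1.42e-05). ALAS2 averaged 3.42 TPM in IDH2R140Q, 6.82 TPM in IDH2R140W and 25.5 TPM in IDH2R172K, and the IDH2R140Q libraries overlapped IDH1R132H.

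In the red cell membrane and cytosol list, 7 of 29 tested members fell and 1 rose, with 8 lower and none higher after median-ratio scaling and 10 lower and none higher after quantile normalisation. The carbonic anhydrase CA1 was 9.86, 11.1 and 10.3 TPM in IDH1R132H, against 135, 123 and 147 in Parental. ANK1, the ankyrin that anchors the red cell skeleton, was 13.9, 15.3 and 13.7 TPM in IDH1R132H, against 78.7, 42.9 and 63.1 in Parental. RHCE, a Rh blood group protein, was 7.99, 10.5 and 7.29 TPM in IDH1R132H, against 31.9, 36.7 and 33.8 in Parental. The IDH1R132H libraries were the lower ones for all of them, with no overlap (−3.57, −1.99 and −1.88). CA2 fell by 2.80, AHSP, the alpha globin chaperone, by 2.01, RHD by 1.74 and the water channel AQP1, which stands on 2 rows, by 1.13. RHD and RHCE are close copies. BPGM, which makes the 2,3-bisphosphoglycerate that loosens oxygen from haemoglobin, went the other way at 31.8, 28.6 and 28.4 TPM in IDH1R132H, against 14.7, 10.5 and 15.2 in Parental (log2 difference 1.10 ± 0.14, adjusted p = 2.43e-05; 0.91 after median-ratio scaling and 0.94 without Parental replicate 2), and it also exceeded the IDH2 lines (1.38, adjusted p = 5.52e-07). Glycophorins GYPB and GYPE, which are close copies, were higher than the mean of the IDH2 lines (1.14 and 1.03), although for both IDH2R172K exceeded IDH1R132H (a mean of 28.3 TPM in IDH1R132H and 44.1 in IDH2R172K for GYPB, and of 35.3 and 48.1 TPM for GYPE). CA2 was likewise above the mean of the IDH2 lines (1.12, adjusted p = 0.000144), which held 2.82 TPM in IDH2R140Q, 7.65 TPM in IDH2R140W and 1.01 TPM in IDH2R172K. Of the 29 members, 4 were higher and 6 lower than that mean. Among the lower, ANK1, RHCE and RHD were below all 12 other libraries (−1.38, −1.45 and −1.49 against the mean of the IDH2 lines). CA1 and AHSP were lower too (−1.92 and −1.10), but IDH2R140Q overlapped IDH1R132H for both.

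Of 16 tested erythroid transcription factors 1 rose and none fell, near the share of all symbols, but after median-ratio scaling or quantile normalisation 1 fell and none rose. KLF1, the factor that activates adult beta globin, was 72.6, 67.1 and 70.3 TPM in IDH1R132H, against 139, 137 and 141 in Parental, just under 2-fold (log2 difference −0.98 ± 0.06, adjusted p = 1.39e-08) and past it after median-ratio scaling (−1.18). It was also below all 9 IDH2 libraries (−0.75, adjusted p = 4.46e-08). TAL1 and LMO2, partners in the erythroid DNA-binding complex, averaged 104 against 78.8 TPM and 175 against 181 TPM in IDH1R132H and Parental, and MYB, a progenitor factor, 156 against 164 TPM. BCL11A, the repressor of gamma globin, was 9.49, 8.03 and 6.72 TPM in IDH1R132H, against 5.03, 7.55 and 4.31 in Parental, and its values overlapped (0.47, adjusted p = 0.0735). The factor that rose was CITED2, a CBP/p300-binding regulator (114 against 53.7 TPM), whose difference was 1.08, or 0.88 after median-ratio scaling.

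Genes of megakaryocytes and platelets were widely higher. Of 25 tested 17 rose and none fell, with a median of 1.14, and 12 rose after median-ratio scaling and 13 after quantile normalisation. RAB27B, a GTPase of platelet granule release, was 30.8, 29.2 and 31.2 TPM in IDH1R132H, against 1.8, 0.92 and 1.77 in Parental. SELP, the adhesion receptor P-selectin, was 26.8, 22.8 and 22.4 TPM in IDH1R132H, against 2.52, 1.43 and 2.04 in Parental. MMRN1, the granule protein multimerin, was 30.3, 32.7 and 33.6 TPM in IDH1R132H, against 6.89, 5.08 and 5.02 in Parental. In all of these the IDH1R132H libraries lay above the Parental libraries, with no overlap. The differences were 3.67 for RAB27B (adjusted p = 8.90e-09), 3.07 for SELP (3.84e-09) and 2.33 for MMRN1 (7.84e-09). PPBP, a platelet chemokine, was 12.3, 8.66 and 11.4 TPM in IDH1R132H, against 0.55, 0 and 0.25 in Parental. GP1BB, a subunit of the von Willebrand factor receptor, was 27, 28.4 and 30.02 TPM in IDH1R132H, against 5.2, 6.62 and 5.54 in Parental. SPARC, a matrix protein stored in platelets, was 90.2, 93.7 and 91.4 TPM in IDH1R132H, against 23.1, 16.2 and 21.3 in Parental. These groups did not overlap either, at 3.23, 2.12 and 2.14. ITGB3, the integrin chain of the fibrinogen receptor, rose by 2.01, and F2R, the main thrombin receptor, by 1.49.

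Against the IDH2 lines 9 of the 25 were higher and none lower, and these did not include SELP or PPBP. RAB27B averaged 12.9 TPM in IDH2R140Q, 2.07 TPM in IDH2R140W and 11.4 TPM in IDH2R172K, and all 9 IDH2 libraries were below IDH1R132H (1.98 ± 0.17, adjusted p = 7.62e-07). F2R averaged 61.1 TPM in IDH2R140Q, 52 TPM in IDH2R140W and 48 TPM in IDH2R172K (1.15 ± 0.07, adjusted p = 4.06e-08). F2RL2, another thrombin receptor, was 6.67, 7.06 and 6.16 TPM in IDH1R132H, against 0 to 1.57 in the IDH2 libraries (2.24 ± 0.13, adjusted p = 1.92e-08). Those 3 genes were above all 12 other libraries, as were MMRN1 (1.22) and SPARC (1.26). SELP, by contrast, averaged 23.1 TPM in IDH2R140Q, 3.3 TPM in IDH2R140W and 47.7 TPM in IDH2R172K, and PPBP 38.2 TPM in IDH2R140Q, 1.5 TPM in IDH2R140W and 3.11 TPM in IDH2R172K, so IDH1R132H lay within the span of the IDH2 means. ITGB3, on 2 rows, averaged 62.2 TPM in IDH2R140Q, 26.5 TPM in IDH2R140W and 33.4 TPM in IDH2R172K, which left it uncalled against their mean (−0.54, adjusted p = 0.0381).

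Promoters of a red cell gene that fell and of a platelet gene that rose are shown next because GATA factors are known to serve both lineages. MS4A2, a mast cell gene, is among the largest rises and was above all 12 other libraries. Each run is 300 bases from RefSeq (GRCh38.p14), 250 before to 50 after the start site, on the gene's own strand. Capitals mark AGATAA or TGATAA on either strand, so TTATCT and TTATCA are their complements. The windows are chrX:55030928-55031227, minus strand, for ALAS2, chr1:169630075-169630374, minus strand, for SELP and chr11:60088414-60088713, plus strand, for MS4A2.
ALAS2: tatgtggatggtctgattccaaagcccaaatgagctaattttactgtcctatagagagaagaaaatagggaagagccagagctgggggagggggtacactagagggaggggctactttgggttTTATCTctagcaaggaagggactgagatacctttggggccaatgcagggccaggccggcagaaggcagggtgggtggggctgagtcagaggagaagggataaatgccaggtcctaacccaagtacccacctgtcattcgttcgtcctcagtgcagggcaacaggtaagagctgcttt
SELP: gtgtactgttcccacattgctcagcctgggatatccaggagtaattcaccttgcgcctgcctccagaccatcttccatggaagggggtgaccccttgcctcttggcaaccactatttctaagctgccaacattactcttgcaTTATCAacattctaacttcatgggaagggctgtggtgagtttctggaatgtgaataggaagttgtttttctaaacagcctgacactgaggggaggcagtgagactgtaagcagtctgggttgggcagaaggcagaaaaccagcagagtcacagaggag
MS4A2: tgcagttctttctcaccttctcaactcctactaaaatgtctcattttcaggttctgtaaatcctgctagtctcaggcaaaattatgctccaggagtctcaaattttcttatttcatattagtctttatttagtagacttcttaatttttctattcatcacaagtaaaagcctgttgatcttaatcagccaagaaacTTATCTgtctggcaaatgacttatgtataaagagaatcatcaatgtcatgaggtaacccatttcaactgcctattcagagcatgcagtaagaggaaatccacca
The match began 127 bases before the start site in ALAS2, 108 in SELP and 54 in MS4A2. At least 1 match stood in 13.3% of the 465 promoters of symbols called higher and 11.4% of the 166 of symbols called lower, against 7.69% of the 6569 of all tested symbols with 1 promoter and 16.3% of all 35116 promoters in the table. These shares were not tested. The promoters shown were picked by hand and not by rank, so their matches do not stand for the other genes of their lists.

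The granulocyte lists split by gene. Of 25 mast cell, basophil and eosinophil genes 3 rose and 1 fell, with 4 falls after median-ratio scaling. MS4A2, a signalling subunit of the mast cell IgE receptor (GRCh38 chromosome 11, 60088261 to 60098466, plus strand), was 33, 34.3 and 33.5 TPM in IDH1R132H, against 0.33, 0.3 and 0.61 in Parental. That was 81.3-fold higher in mean TPM, with no overlap (log2 difference 4.62 ± 0.16, adjusted p = 1.09e-10). The IDH2 libraries held only 0.4 to 2.73 TPM, all below IDH1R132H (3.94 ± 0.13, adjusted p = 8.96e-11). FCER1A, its IgE-binding subunit, was 282, 309.5 and 303 TPM in IDH1R132H, against 76.5, 86 and 70.3 in Parental (log2 difference 1.93 ± 0.07, adjusted p = 2.49e-10). It averaged 637 TPM in IDH2R140Q, 319 TPM in IDH2R140W and 248 TPM in IDH2R172K, so IDH1R132H was within their span. Tryptases, whose copies are near-identical, and HDC, the histamine-forming enzyme, stayed low in both IDH1R132H and Parental, with HDC at 0.47, 1.14 and 0.26 TPM in IDH1R132H, against 1.82, 0.67 and 1.38 in Parental. In the IDH2 lines HDC averaged 2.63 TPM in IDH2R140Q, 5.7 TPM in IDH2R140W and 109 TPM in IDH2R172K, and TPSB2 4.64 TPM in IDH2R140Q, 60.1 TPM in IDH2R140W and 3.53 TPM in IDH2R172K. Against their mean 8 of the 25 genes were lower in IDH1R132H and 1, MS4A2, higher. PRG2, eosinophil major basic protein, was 151, 152 and 132 TPM in IDH1R132H, against 209, 451 and 268 in Parental. Its difference of −1.01 became −0.70 without Parental replicate 2, the highest library, and −0.95 without IDH1R132H replicate 3.

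Among 8 tested neutrophil granule genes 2 rose and 2 fell. CTSG, the protease cathepsin G, was 31.8, 33.1 and 32.8 TPM in IDH1R132H, against 0.43, 0.97 and 0 in Parental (log2 difference 4.57 ± 0.20, adjusted p = 7.72e-10). It averaged 11 TPM in IDH2R140Q, 24 TPM in IDH2R140W and 57.7 TPM in IDH2R172K, and no call was made against them (0.37, adjusted p = 0.0923). MMP9, a gelatin-cleaving metalloproteinase, was 25.4, 27.3 and 24.1 TPM in IDH1R132H, against 0.36, 0.28 and 0.43 in Parental (log2 difference 4.29 ± 0.11, adjusted p = 1.80e-11). It exceeded all 12 other libraries (1.69 ± 0.09, adjusted p = 7.58e-09 against the mean of the IDH2 lines). MMP9 averaged 22.8 TPM in IDH2R140Q, 2.2 TPM in IDH2R140W and 6.41 TPM in IDH2R172K, so IDH2R140Q was near the IDH1R132H level. CFD, complement factor D, fell by 1.90 (6.9 against 28.3 TPM) and LCN2, an iron-siderophore binder, by 1.11, a call lost without IDH1R132H replicate 2 (−0.94) or Parental replicate 3 (−0.89). Of 17 monocyte and macrophage genes 2 rose and 2 fell, or 1 and 3 after either scaling. CSF1R, the M-CSF receptor, was 7.06, 6.19 and 9.13 TPM in IDH1R132H, against 2.3, 1.73 and 2.84 in Parental (1.36). CD4 was 4.77, 5.51 and 7.81 TPM in IDH1R132H, against 32, 11.4 and 32 in Parental, a difference of −1.78 in which Parental replicate 2 stood lowest of its group. FCGR2A, an IgG receptor, rose by 1.02, or 0.82 after median-ratio scaling and 0.88 without Parental replicate 2.

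Progenitor genes were higher in part. Of 13 tested 7 rose and none fell, with a median of 1.08, and 6 rose after median-ratio scaling or quantile normalisation. CD34, the progenitor surface marker, was 506, 515 and 516 TPM in IDH1R132H, against 177, 118 and 163 in Parental. MEIS1, a HOX cofactor of stem cells, was 24.9, 31 and 24.1 TPM in IDH1R132H, against 2.59, 0.8 and 2.56 in Parental. MYCN, the MYC relative, was 7.37, 8.8 and 8.16 TPM in IDH1R132H, against 0.65, 0.62 and 0.45 in Parental. All IDH1R132H libraries were above all Parental libraries for each, by 1.76, 3.27 and 2.53. LIN28B, which blocks let-7 microRNA and marks fetal blood formation, was 44.1, 50.6 and 49.2 TPM in IDH1R132H, against 12.4, 8.52 and 11.9 in Parental (log2 difference 2.05 ± 0.13, adjusted p = 3.23e-08). LIN28B was also above all IDH2 libraries, which ran from 0.15 to 9.48 TPM (3.73 ± 0.11, adjusted p = 3.31e-11). RUNX1, a master factor of blood formation, rose by 1.60 and ANGPT1, the TIE2 ligand, by 1.62. CD34 averaged 485 TPM in IDH2R140Q, 276 TPM in IDH2R140W and 533 TPM in IDH2R172K, and neither CD34 nor MYCN was called against the IDH2 lines (0.31 and −0.14). CD38 did not pass against Parental (−0.48, adjusted p = 0.18), but was lower than in the IDH2 lines, where it averaged 9.26 TPM in IDH2R140Q, 6.31 TPM in IDH2R140W and 5.5 TPM in IDH2R172K (−2.26, adjusted p = 4.02e-06).

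**Figure D2:**
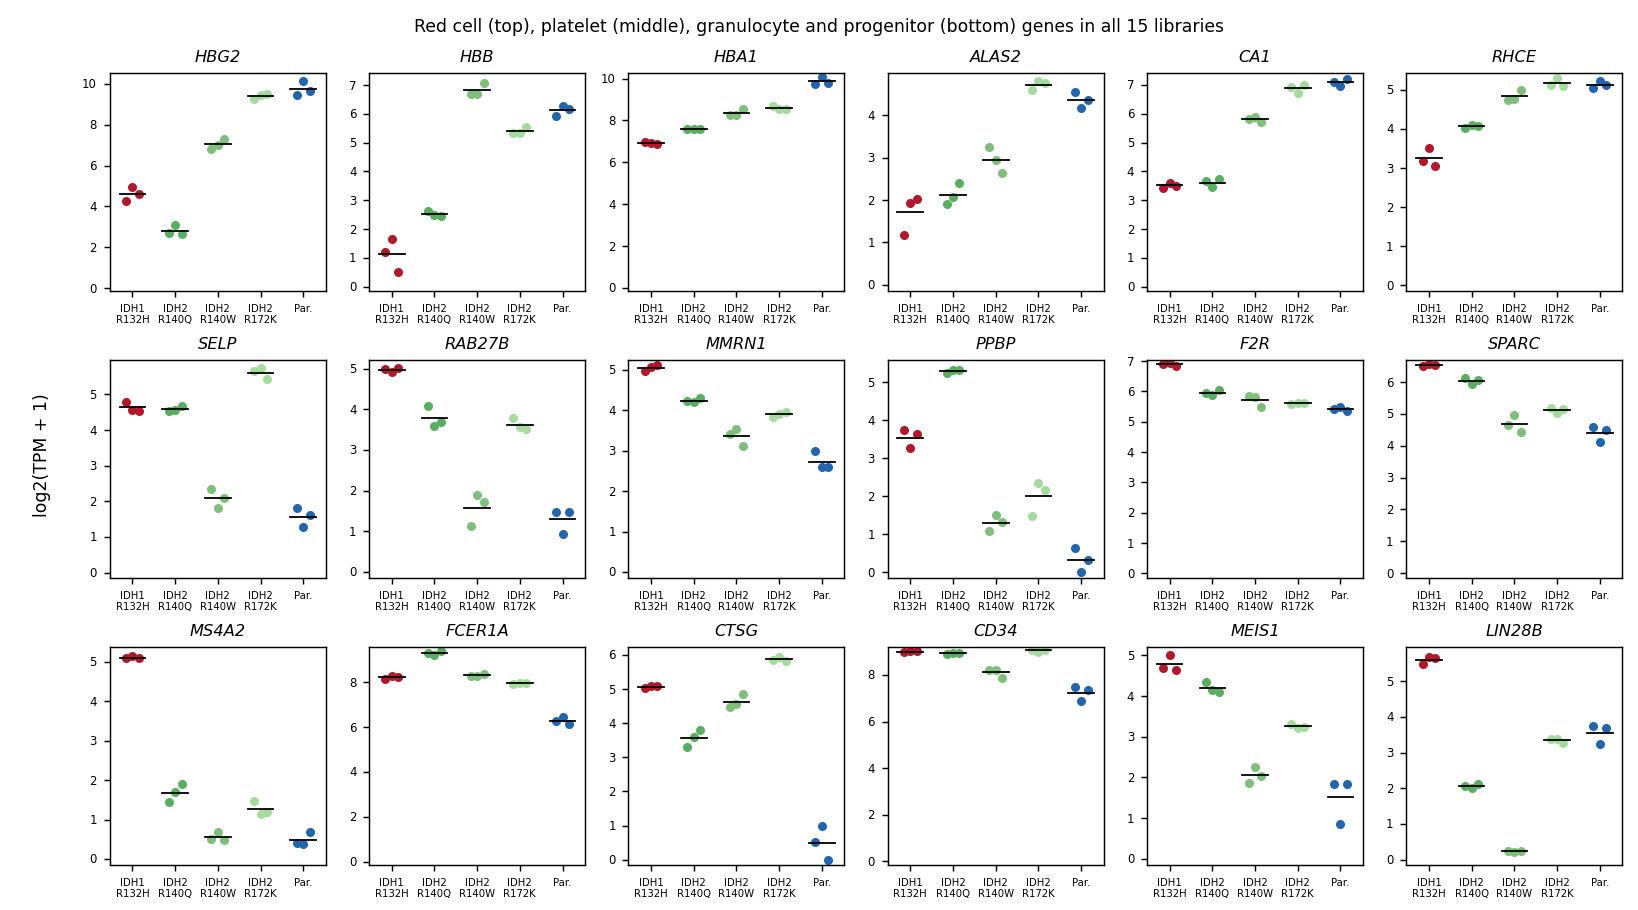
Points are single libraries and bars are group means, in log2(TPM + 1), for 6 red cell, 6 platelet and 6 granulocyte or progenitor genes. Groups run from IDH1R132H over the IDH2 lines to Parental (Par.). Every red cell gene shown is lower and every other gene shown is higher in IDH1R132H than in Parental. RAB27B, MMRN1, F2R, SPARC, MS4A2, MEIS1 and LIN28B are higher in IDH1R132H than in every other library.

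Of 22 tested receptors for GM-CSF and related cytokines 3 rose and 2 fell. CSF2RB, the shared beta chain of the GM-CSF, IL-3 and IL-5 receptors, was 54.9, 55.8 and 52.2 TPM in IDH1R132H, against 77.3, 50.1 and 72.2 in Parental. Those groups overlapped (−0.27, adjusted p = 0.165). In the IDH2 lines CSF2RB averaged 118 TPM in IDH2R140Q, 167 TPM in IDH2R140W and 120.1 TPM in IDH2R172K, more than in IDH1R132H (−1.27 ± 0.12, adjusted p = 2.32e-06). IL10RA, an interleukin-10 receptor chain, rose by 1.71 (21.7 against 5.95 TPM), and IL1RAP, the IL-1 receptor accessory protein, by 1.10 (60.2 against 28.2 TPM). IL1RAP was 0.91 after median-ratio scaling and 0.87 without Parental replicate 2. OSMR, the oncostatin M receptor, fell by 1.11, and this was −0.97 without IDH1R132H replicate 3. TNFRSF1B, a TNF receptor, was 10.3, 10.9 and 10.7 TPM in IDH1R132H, against 42.8, 36.4 and 43.9 in Parental and fell without overlap (log2 difference −1.85 ± 0.10, adjusted p = 7.62e-09). EPOR, the erythropoietin receptor, was higher in IDH1R132H by just under 2-fold (45.1 against 23.5 TPM; 0.91, adjusted p = 2.66e-06).

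Of 25 tested JAK, STAT and feedback genes 5 fell and none rose, with a median of −0.05. SOCS3, a feedback inhibitor of cytokine receptors, was 13.2, 12.7 and 13.3 TPM in IDH1R132H, against 38.3, 29.4 and 39.1 in Parental. SOCS2, another such inhibitor, was 27.8, 22.1 and 22.6 TPM in IDH1R132H, against 52.5, 52.9 and 51.4 in Parental. ID1, which blocks helix-loop-helix factors, was 109, 116 and 110.2 TPM in IDH1R132H, against 427, 559.9 and 445 in Parental. All were lower in IDH1R132H with no overlap (−1.37, −1.09 and −2.07). The cytokines OSM and LIF completed the 5. OSM was 1.83, 2.38 and 1.47 TPM in IDH1R132H, against 8.24, 9.86 and 8.71 in Parental (log2 difference −1.79 ± 0.17, adjusted p = 1.67e-06) and LIF was 1.69, 1.73 and 1.28 TPM in IDH1R132H, against 14.7, 9.45 and 11.7 in Parental (log2 difference −2.32 ± 0.17, adjusted p = 1.24e-07). OSM and LIF were also lower than the mean of the IDH2 lines (−2.19 and −1.47), as was STAT6 (−1.05, adjusted p = 7.38e-05), whereas SOCS2, SOCS3 and ID1 were not called there. LIF averaged 1.68 TPM in IDH2R140Q, 25.5 TPM in IDH2R140W and 4.13 TPM in IDH2R172K, and IDH2R140Q overlapped IDH1R132H. CISH, a further STAT5 target, was 44 against 49.2 TPM (−0.16, adjusted p = 0.0742), and PIM1, a STAT5-induced kinase, 148 against 246 TPM (−0.72, adjusted p = 7.15e-06).

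Of 16 tested growth factor genes 4 fell and 3 rose. CSF1, which encodes M-CSF, was 5.08, 6.57 and 5.99 TPM in IDH1R132H, against 24, 16.6 and 19.4 in Parental. CSF2, which encodes GM-CSF itself, was 1.23, 1.26 and 1.56 TPM in IDH1R132H, against 5.3, 5.09 and 4.6 in Parental. Both were lower with no overlap, at −1.60 and −1.35, and both were below all 9 IDH2 libraries, at −1.64, adjusted p = 4.87e-07 for CSF1 and −1.59, adjusted p = 4.46e-08 for CSF2. CSF1 averaged 20 TPM in IDH2R140Q, 51.1 TPM in IDH2R140W and 8.18 TPM in IDH2R172K, so IDH2R172K was nearest to IDH1R132H. CSF2 averaged 1.89 TPM in IDH2R140Q, 10.4 TPM in IDH2R140W and 9.64 TPM in IDH2R172K, so IDH2R140Q was near the IDH1R132H level. ANGPT1, HBEGF and TGFB1 rose. TGFB1, an abundant transcript, was 647, 653 and 653 TPM in IDH1R132H, against 301, 275 and 311 in Parental (log2 difference 1.14 ± 0.05, adjusted p = 6.06e-10; 0.94 after median-ratio scaling). HBEGF, an EGF receptor ligand, was 5.03 against 1.02 TPM (1.59).

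Immediate early and feedback genes of the ERK pathway moved upwards in part, with 7 of 30 higher and 1 lower. After median-ratio scaling 4 were higher, and after quantile normalisation 3. FOSB, an AP-1 subunit, was 9.92, 11.5 and 7.89 TPM in IDH1R132H, against 3.56, 1.6 and 2.68 in Parental. PHLDA1, an ERK-induced gene, was 4.41, 4.56 and 4.62 TPM in IDH1R132H, against 1.18, 0.75 and 1.3 in Parental. KLF6, a zinc finger factor, was 22, 23.1 and 20.4 TPM in IDH1R132H, against 8.58, 6.65 and 7.54 in Parental. The groups did not overlap (1.60, 1.42 and 1.41). DUSP4 and DUSP6, phosphatases that dampen ERK, rose by 1.16 and 1.01, and JUN by 1.02. After quantile normalisation DUSP4 was at 0.96. After median-ratio scaling DUSP6 was at 0.82 and JUN at 0.83, and without Parental replicate 2 at 0.97 and 0.94. Without IDH1R132H replicate 1 DUSP6 was 0.97, and without IDH1R132H replicate 2 JUN was 0.98. ETV4, an ERK-dependent ETS factor, went the other way at 22.1, 21.4 and 21.4 TPM in IDH1R132H, against 56.9, 44.4 and 53.5 in Parental (log2 difference −1.21 ± 0.10, adjusted p = 2.48e-07). PHLDA1, KLF6 and JUN were also called above the IDH2 lines (1.12, 1.08 and 1.24).

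Of 26 tested NF-kB and inflammatory genes 9 rose and 1 fell, or 6 and 5 rose after median-ratio scaling and quantile normalisation. CD40, a TNF receptor family member, was 25.6, 29.4 and 29.4 TPM in IDH1R132H, against 2.2, 1.93 and 2.76 in Parental. BIRC3, an inhibitor of apoptosis induced by NF-kB, was 6.6, 4.3 and 4.89 TPM in IDH1R132H, against 0.2, 0.33 and 0.34 in Parental. TNFAIP3, the A20 feedback enzyme, was 13.7, 11.3 and 13.6 TPM in IDH1R132H, against 2.97, 2.91 and 2.58 in Parental. RELB, a subunit of the non-canonical pathway, was 46.3, 48.9 and 43.6 TPM in IDH1R132H, against 12.7, 14.9 and 10.7 in Parental. All were separate between the groups, at 3.15, 2.26, 1.86 and 1.79. CD69, an activation marker, rose by 1.33, and IL1RN, the IL-1 receptor antagonist, by 1.11, or 0.99 without IDH1R132H replicate 2 and 0.91 after quantile normalisation. IL1A, an inflammatory cytokine, fell by 1.13. BIRC3, TNFAIP3, RELB and TNFAIP2 were also higher than in the IDH2 lines (1.40, 1.45, 1.16 and 1.17), whereas CD40, which averaged 34.7 TPM in IDH2R140Q, 6.04 TPM in IDH2R140W and 46.8 TPM in IDH2R172K, was not called there.

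Of 11 tested chemokines 3 rose and none fell, and 7 rose with a pseudocount of 0.1. CCL7, a monocyte attractant (GRCh38 chromosome 17, 34270221 to 34272242, plus strand), was listed at 21.7, 24.6 and 22.6 TPM in IDH1R132H and at 0 in the 3 Parental libraries, so no fold is given. The IDH2 libraries held 0.23 to 6.4 TPM of CCL7 (3.32 ± 0.22, adjusted p = 5.93e-08). CCL2, another monocyte attractant, was 23, 19.8 and 28 TPM in IDH1R132H, against 3.7, 2.23 and 1.96 in Parental (log2 difference 2.78 ± 0.17, adjusted p = 2.74e-08). CCL2 averaged 5.07 TPM in IDH2R140Q, 70.7 TPM in IDH2R140W and 23 TPM in IDH2R172K, and the IDH1R132H value was not called apart from them. CXCL10 rose at a low level (2.98 against 0.0967 TPM; 1.86, adjusted p = 4.68e-06).

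Of 41 tested interferon-induced genes 13 rose and 1 fell against Parental, with a median of 0.36. Against the IDH2 lines none was higher and 13 were lower, with a median of −0.57. IFI6, a mitochondrial protein, was 123, 126 and 121 TPM in IDH1R132H, against 32.8, 39.7 and 36.7 in Parental. USP18, which removes ISG15 from proteins, was 10.9, 11.7 and 11.5 TPM in IDH1R132H, against 3.09, 2.6 and 2.86 in Parental. IFIT5, an RNA-binding effector, was 4.32, 4.49 and 4.93 TPM in IDH1R132H, against 0.98, 0.66 and 0.23 in Parental. Those groups did not overlap, at 1.74, 1.68 and 1.81. USP18 and IFIT5 were above the mean of the IDH2 lines, by 0.62 and 0.76, under the limit for a call. IFI6 averaged 417 TPM in IDH2R140Q, 262 TPM in IDH2R140W and 148 TPM in IDH2R172K, and IDH1R132H was below all of them (−1.03 ± 0.06, adjusted p = 3.81e-08). OAS1, an enzyme activated by double-stranded RNA, was 1.7, 1.45 and 1.07 TPM in IDH1R132H and was listed at 0 in the 3 Parental libraries. It averaged 19.6 TPM in IDH2R140Q, 9.77 TPM in IDH2R140W and 5.25 TPM in IDH2R172K (−2.21 ± 0.15, adjusted p = 7.29e-08 against their mean). The exception was LGALS3BP, a secreted galectin-3 binding protein (GRCh38 chromosome 17, 78971238 to 78980109, minus strand), at 26.1, 25.9 and 24.9 TPM in IDH1R132H, against 240.2, 158 and 205 in Parental (log2 difference −2.90 ± 0.12, adjusted p = 6.95e-10). It was lower than in all 9 IDH2 libraries too, which ran from 85.8 to 215 TPM (−2.25 ± 0.10, adjusted p = 2.26e-09).

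HLA class II presentation had the lowest median of the 41 lists against the IDH2 lines. Against Parental 2 of 10 tested genes fell and none rose, with 4 lower after median-ratio scaling or quantile normalisation. Against the IDH2 lines 9 of 10 were lower, with a median of −2.59. CD74, the invariant chain that escorts class II molecules, was 39.2, 38.9 and 41.7 TPM in IDH1R132H, against 84.9, 65 and 74.8 in Parental, under 2-fold (log2 difference −0.88 ± 0.08, adjusted p = 1.43e-06) but past it after median-ratio scaling (−1.08). It averaged 727 TPM in IDH2R140Q, 131 TPM in IDH2R140W and 481 TPM in IDH2R172K (−3.14 ± 0.07, adjusted p = 2.33e-12). HLA-DRA was 2.28, 3.08 and 2.64 TPM in IDH1R132H, against 4.37, 5.69 and 3.89 in Parental and averaged 51.7 TPM in IDH2R140Q, 13.5 TPM in IDH2R140W and 34.3 TPM in IDH2R172K (−3.03 ± 0.13, adjusted p = 1.38e-09). HLA-DQB1 was 1.79, 2.18 and 1.56 TPM in IDH1R132H, against 5.96, 6.85 and 6.94 in Parental and averaged 42.5 TPM in IDH2R140Q, 14.8 TPM in IDH2R140W and 23 TPM in IDH2R172K (−3.16 ± 0.11, adjusted p = 1.43e-10). For CD74, HLA-DRA and HLA-DQB1 the IDH1R132H libraries were the lowest of all 15. CIITA, which switches the class on, was 1.42, 2.45 and 2.3 TPM in IDH1R132H, against 2.19, 1.86 and 3.71 in Parental with overlap, and averaged 22.3 TPM in IDH2R140Q, 1.76 TPM in IDH2R140W and 8.14 TPM in IDH2R172K (−1.47, adjusted p = 5.15e-06). IFI30, a lysosomal reductase for antigen processing, was 18.7, 20.5 and 19.7 TPM in IDH1R132H, against 80.7, 83.1 and 85.8 in Parental (log2 difference −2.03 ± 0.07, adjusted p = 1.15e-10). The HLA symbols named here stand on several rows that were summed. None of the 8 class I genes tested was called against Parental, and 3 were lower than in the IDH2 lines. HLA-C was 16.8, 18.8 and 19.5 TPM in IDH1R132H, against 29.8, 31.7 and 30.2 in Parental, and it averaged 126 TPM in IDH2R140Q, 96.5 TPM in IDH2R140W and 66.2 TPM in IDH2R172K (−2.28 ± 0.07, adjusted p = 5.95e-11). HLA-B was also lower than in the IDH2 lines (−2.14). Against Parental it was not called, and its difference ran from 0.10 to 0.44 across all runs of the fit.

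None of 10 tested IDH and 2-hydroxyglutarate enzymes was called, or 1, IDH1, after median-ratio scaling or quantile normalisation. IDH3B, a subunit of the mitochondrial NAD-dependent enzyme, was 277, 271 and 257 TPM in IDH1R132H, against 196, 189.6 and 191 in Parental, higher without overlap but under 2-fold (0.48, adjusted p = 5.49e-06). D2HGDH, which clears D-2-hydroxyglutarate, was 7.64, 8.51 and 5.71 TPM in IDH1R132H, against 13.8, 7.28 and 11.2 in Parental, with overlap (−0.48, adjusted p = 0.0925). PHGDH, which opens serine synthesis, was 131 against 101 TPM (0.37, adjusted p = 0.000347) and higher than all 12 other libraries. Of 11 tested DNA methylation genes none was called against Parental. TET2, which oxidises methylcytosine, was 4.68, 4.46 and 4.47 TPM in IDH1R132H, against 3.38, 2.11 and 4 in Parental (0.44, adjusted p = 0.123). TET3 was 14.9, 13.6 and 14.2 TPM in IDH1R132H, against 9.74, 3.74 and 7.68 in Parental, with Parental replicate 2 the lowest library. The TET3 difference lay just under the 2-fold limit, and ran from 0.65 without Parental replicate 2 to 1.24 without Parental replicate 1. It was called without Parental replicate 1 or 3, without IDH1R132H replicate 2 and with a pseudocount of 0.1. DNMT1, the maintenance methyltransferase, was 251 against 209 TPM (0.26, adjusted p = 0.0424) and DNMT3A 11.3 against 8.29 TPM (0.44, adjusted p = 0.0685). GADD45A, a stress gene with a proposed part in demethylation, was higher than in the IDH2 lines (1.27, adjusted p = 2.45e-09) and just under 2-fold above Parental (0.95).

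Of 33 tested JmjC and other dioxygenases 1 rose and 1 fell, or none and 1 after either scaling. The first counts are no more than the shares of all symbols, 7.74% higher and 3.09% lower. KDM6B, which removes H3K27 methylation, was 25.1, 20.8 and 23.9 TPM in IDH1R132H, against 18.3, 5.01 and 12.2 in Parental. Its rise of 1.07 was lost without Parental replicate 2 (0.60) and after median-ratio scaling (0.89), and its p no longer passed without IDH1R132H replicate 1 or when only the compared groups were fitted. P4HA2, a collagen prolyl hydroxylase, fell by 1.05, and this was −0.91 without IDH1R132H replicate 2. In the TCA cycle and glutamine list 2 of 26 fell. DLD, the shared E3 subunit of the 2-oxo acid dehydrogenases, was 59.9, 64.8 and 66.5 TPM in IDH1R132H, against 141, 124 and 131 in Parental. SUCLG2, a GTP-forming succinyl-CoA ligase, was 6.13, 7.8 and 5.9 TPM in IDH1R132H, against 15.3, 16.1 and 14.9 in Parental. Both were lower with no overlap, by 1.04 and 1.12 on the log2 scale, and both were below all IDH2 libraries (−1.16, adjusted p = 4.54e-09 for DLD and −0.86, adjusted p = 1.47e-05 for SUCLG2). The DLD difference was −0.99 without IDH1R132H replicate 1 and −0.99 without Parental replicate 1. Among 18 genes of branched-chain amino acid breakdown 2 fell, the mitochondrial transaminase BCAT2 (24.1 against 49.5 TPM; −1.01) and HIBADH of the valine pathway (7.61 against 17 TPM; −1.07). BCAT2 was −0.97 without Parental replicate 2, and it was also lost without IDH1R132H replicate 3, where HIBADH was −0.97. BCAT1, the cytosolic transaminase, was 60.8 against 42.1 TPM (0.57, adjusted p = 0.0489).

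Glycolysis and hypoxia genes were called higher in 3 and lower in 1 of 34 tested, near the share of all symbols. After median-ratio scaling this was 2 and 3, and after quantile normalisation 2 and 2. The list's median of 0.18 was close to the 0.16 of all symbols, so the genes below are single cases. NDRG1, a hypoxia-induced gene, was 17.1, 15.3 and 13.6 TPM in IDH1R132H, against 4.58, 2.88 and 3.59 in Parental (log2 difference 1.81 ± 0.18, adjusted p = 2.53e-06). PFKFB3, which drives glycolysis through fructose-2,6-bisphosphate, was 60.8, 58 and 59.5 TPM in IDH1R132H, against 29.9, 18 and 24.6 in Parental (log2 difference 1.29 ± 0.16, adjusted p = 1.68e-05). PFKFB4, its relative, fell to 3.68, 3.85 and 3.06 TPM in IDH1R132H, against 11, 9.84 and 12 in Parental (−1.40). PDK1, which blocks pyruvate entry, was 1.01 higher, or 0.82 after median-ratio scaling and 0.94 without Parental replicate 2. NDRG1, PFKFB3 and EGLN3, an oxygen-sensing hydroxylase, exceeded the IDH2 lines (1.00, 1.08 and 1.22). Of 28 NRF2, glutathione and NADPH genes 1 fell, near the 3.09% of all symbols. This was the glutathione transferase MGST1, at 12.9, 13.5 and 15.3 TPM in IDH1R132H, against 88.2, 119 and 94.3 in Parental (log2 difference −2.76 ± 0.14, adjusted p = 3.99e-09). SRXN1, an NRF2 target that repairs peroxiredoxins, and SLC7A11, the cystine carrier, were not called against Parental (0.69 and 0.63) but were higher than in the IDH2 lines (1.15, adjusted p = 1.67e-09 for SRXN1 and 1.23, adjusted p = 3.85e-05 for SLC7A11).

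Of 29 tested genes of the ATF4 and amino acid response 4 rose and none fell against Parental, or 2 after median-ratio scaling. Relative to the IDH2 lines 7 were higher and none lower, with a median of 0.69. DDIT3, the stress factor CHOP, was 23.9, 23.5 and 23.1 TPM in IDH1R132H, against 7.4, 10 and 7.47 in Parental. ATF3, an ATF4-induced factor, was 10.5, 16.2 and 14.6 TPM in IDH1R132H, against 2.73, 1.14 and 2.86 in Parental. TRIB3, a pseudokinase, was 88.3, 96.9 and 86.6 TPM in IDH1R132H, against 40.4, 37.2 and 42.2 in Parental. All were higher in IDH1R132H with no overlap (1.41, 2.21 and 1.16), and TRIB3 was 0.97 after median-ratio scaling. PPP1R15A, which restarts translation, rose by 1.12 (0.92 after median-ratio scaling). DDIT4, an inhibitor of mTOR, was 158, 159 and 163 TPM in IDH1R132H, against 108, 101 and 97.4 in Parental and averaged 37.2 TPM in IDH2R140Q, 54.3 TPM in IDH2R140W and 14.6 TPM in IDH2R172K (2.33 ± 0.07, adjusted p = 3.84e-11). CHAC1, which degrades glutathione, was 19.7, 19.1 and 18.8 TPM in IDH1R132H, against a mean of 9.36 TPM in IDH2R140Q, 4.78 TPM in IDH2R140W and 1.99 TPM in IDH2R172K (1.85 ± 0.11, adjusted p = 2.96e-08). CTH and CBS, the enzymes that turn homocysteine into cysteine, were higher than in the IDH2 lines by 1.49 and 1.13. Against Parental, CHAC1, CTH and CBS were not called. Across all runs of the fit those differences were 0.27 to 0.52, 0.26 to 0.51 and −0.03 to 0.25. None of 17 aminoacyl-tRNA synthetases was called in either comparison.

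Of 29 cholesterol and fatty acid genes 1 rose and 2 fell, with none higher and 4 lower after either scaling. SREBF1, a lipid synthesis factor, fell by 1.18 (76 against 175 TPM). SC5D, a late sterol enzyme, rose by 1.11, or 0.92 after median-ratio scaling and 0.88 without Parental replicate 2. Of 6 metallothioneins MT1F rose (1.54).

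Growth and death genes moved singly. Of 21 p53 targets and CDK inhibitors 4 rose and 1 fell, or 2 rose after either scaling. CDKN2B, the CDK4/6 inhibitor p15, was 55.1, 47.1 and 38.6 TPM in IDH1R132H, against 9.33, 5.17 and 8.37 in Parental (log2 difference 2.49 ± 0.21, adjusted p = 5.47e-07) and was higher than in the IDH2 lines (1.76, adjusted p = 3.42e-06). CDKN2D, its relative p19, was 73.1, 71.9 and 72.4 TPM in IDH1R132H, against 30.5, 27.6 and 31.6 in Parental (1.25). FDXR, a mitochondrial reductase, fell by 1.24. CDKN1A, the main p53-induced inhibitor, was 9.67 against 8.67 TPM (0.15, adjusted p = 0.331). BBC3, BMF and BCL2 were the members called among 17 BCL2 family genes (1.11, 1.00 and 1.00), and none stayed past 2-fold after either scaling. Without Parental replicate 2, BMF was 0.89 and BCL2 0.98. E2F1, the S phase factor, was the only 1 of 28 G1/S genes called (1.15, or 0.95 after median-ratio scaling). Among 36 mitosis genes UBE2C, a mitotic ubiquitin enzyme, rose (1.06, or 0.86 after median-ratio scaling). TPX2, a spindle protein, was 176, 182 and 177 TPM in IDH1R132H, against 421, 345 and 415 in Parental and fell with no overlap (log2 difference −1.13 ± 0.08, adjusted p = 1.03e-07). Both lie on chromosome 20. For G1/S and mitosis genes these counts are under the shares of all symbols, 7.74% higher and 3.09% lower. MKI67, the common proliferation marker, was 68.5, 56.2 and 63.3 TPM in IDH1R132H, against 79.5, 41.7 and 70.7 in Parental, with overlap, and the mean of its logs was slightly higher in IDH1R132H although its mean TPM was lower (0.02, adjusted p = 0.949).

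Adhesion and matrix genes rose in part. Of 26 integrins and adhesion genes 8 rose and 1 fell (7 higher and 2 lower after either scaling), and of 26 matrix genes and proteases 10 rose and none fell (10 higher and 1 lower after either scaling). CD44, the hyaluronan receptor, was 1217, 1155 and 1189 TPM in IDH1R132H, against 222, 149.9 and 212 in Parental. ITGB4, the laminin-binding integrin chain, was 51, 47.8 and 52.3 TPM in IDH1R132H, against 4.75, 2.28 and 3.66 in Parental. ITGB5, a vitronectin receptor chain, was 43.9, 38.7 and 39.4 TPM in IDH1R132H, against 2.71, 3.67 and 4.72 in Parental. CDH5, the cadherin of endothelium, was 11.8, 12.5 and 12.6 TPM in IDH1R132H, against 0.92, 0.51 and 0.81 in Parental. Every IDH1R132H library was above every Parental library, by 2.62, 3.53, 3.17 and 2.94. ITGB4 averaged 47.1 TPM in IDH2R140Q, 4.5 TPM in IDH2R140W and 2.81 TPM in IDH2R172K, so IDH2R140Q was near the IDH1R132H level, and CD44 was not called against the IDH2 lines (0.68, adjusted p = 0.000446). SELPLG, the ligand of P-selectin, was 17.2, 18.8 and 14.3 TPM in IDH1R132H, against 47.9, 33.3 and 43.9 in Parental and fell (log2 difference −1.26 ± 0.13, adjusted p = 3.32e-06), and it was also below all IDH2 libraries (−1.41, adjusted p = 2.21e-07).

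In the matrix list, MMP2, a gelatinase, was 8.16, 11.6 and 10.8 TPM in IDH1R132H, against 0.45, 0 and 0 in Parental. LTBP1, which binds latent TGF-beta, was 16.8, 19 and 16.6 TPM in IDH1R132H, against 1.73, 1.25 and 1.25 in Parental. LAMC1, a laminin chain, was 18.2, 14.8 and 25.2 TPM in IDH1R132H, against 1.69, 0.98 and 2.38 in Parental. SERPINE2, an inhibitor of thrombin and other proteases, was 20.9, 24.8 and 30 TPM in IDH1R132H, against 3.37, 2.69 and 3.23 in Parental. None of these overlapped, at 3.29, 2.94, 2.93 and 2.67. The collagen chain COL6A2 rose by 2.27. The rises in this list include MMP9 and SPARC, which are also counted in the neutrophil granule and platelet lists. Against the IDH2 lines 7 of the 26 were higher and none lower, among them LAMC1 (2.40) and MMP2 (1.35). LAMC1 averaged 15.2 TPM in IDH2R140Q, 1.11 TPM in IDH2R140W and 0.677 TPM in IDH2R172K, so IDH2R140Q was near the IDH1R132H level and its libraries overlapped.

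Of 28 BMP, TGF-beta and ID genes 6 rose and 1, ID1, fell. BMPER, a secreted regulator of BMP ligands (GRCh38 chromosome 7, 33904308 to 34156356, plus strand), had the largest rise of those named, at 46, 47.3 and 39.5 TPM in IDH1R132H, against 1.27, 0.28 and 0.34 in Parental (log2 difference 4.84 ± 0.19, adjusted p = 3.55e-10). It averaged 10.7 TPM in IDH2R140Q, 0.64 TPM in IDH2R140W and 38.5 TPM in IDH2R172K, so IDH2R172K reached nearly the same level. BMP6, a ligand of the pathway, was 39.9, 44.4 and 41.5 TPM in IDH1R132H, against 4.74, 3.49 and 3.74 in Parental (log2 difference 3.11 ± 0.13, adjusted p = 6.95e-10) and exceeded all 12 other libraries (1.46, adjusted p = 2.12e-07). SKIL, a SMAD corepressor, was 70.4, 68.1 and 64.5 TPM in IDH1R132H, against 19.8, 6.6 and 15.4 in Parental, and the inhibitor SMAD7 was 10.6, 8.36 and 8.37 TPM in IDH1R132H, against 3.23, 2.51 and 3.64 in Parental. These groups did not overlap (2.32 and 1.29), and both genes were above all IDH2 libraries as well (1.69 and 1.66).

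Of 22 genes in the HOXA and HOXB list, which includes their cofactors, 2 rose and 1 fell, near the share of all symbols, and after median-ratio scaling 1 rose and 3 fell. The rises included MEIS1, a cofactor, and the fall was HOXA5 (5.27 against 12.3 TPM; −1.08, and −0.97 without IDH1R132H replicate 3 and −0.97 without Parental replicate 1). Of 19 potassium and calcium channels 3 fell and none rose. KCNH2, a voltage-gated potassium channel (GRCh38 chromosome 7, 150944961 to 150978315, minus strand), was 4.11, 4.19 and 3.18 TPM in IDH1R132H, against 112, 87.6 and 107 in Parental (log2 difference −4.42 ± 0.13, adjusted p = 1.80e-11). It averaged 2.34 TPM in IDH2R140Q, 45.1 TPM in IDH2R140W and 12.8 TPM in IDH2R172K. KCNN4, the calcium-activated potassium channel of red cells (chromosome 19, 43766533 to 43781261, minus strand), was 6.13, 5.45 and 4.16 TPM in IDH1R132H, against 59.8, 56.2 and 51.7 in Parental (log2 difference −3.20 ± 0.11, adjusted p = 8.15e-11). KCNN4 averaged 59.5 TPM in IDH2R140Q, 57.6 TPM in IDH2R140W and 43.7 TPM in IDH2R172K, and IDH1R132H was below all 12 other libraries (−3.13 ± 0.09, adjusted p = 2.58e-11). PIEZO1, the mechanically gated channel, fell by 1.20 (67.1 against 156 TPM). None of the 13 mitochondrially encoded genes was called, with a median of −0.44, and mitochondrial RNA made up 3.05% to 3.40% of TPM in IDH1R132H, against 4.07% to 5.30% in Parental.

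**Figure D3:**
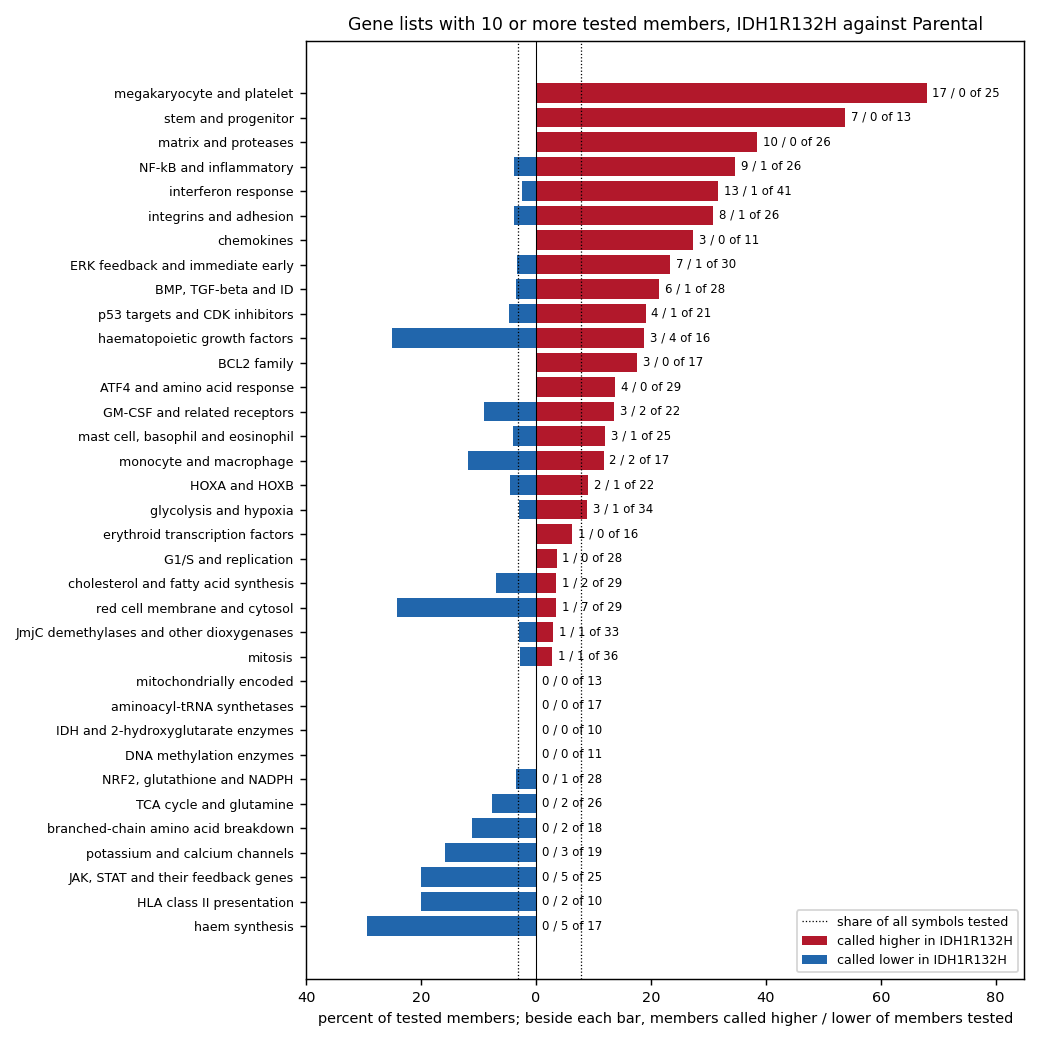
Bars give the percent of tested members called higher (red, to the right) or lower (blue, to the left) in IDH1R132H than in Parental, for lists with 10 or more tested members, and dotted lines mark the share of all symbols, 7.74% higher and 3.09% lower. Megakaryocyte and platelet genes reach furthest to the right with 17 of 25, and haem synthesis furthest to the left with 5 of 17.

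Other symbols among the 12 largest rises lay outside the lists. GRID1, a glutamate receptor subunit, was 57.8, 63.6 and 55.4 TPM in IDH1R132H, against 2.43, 1.76 and 2.29 in Parental (4.25). ITGA8, an integrin chain, was 30.3, 35.6 and 31.4 TPM in IDH1R132H, against 0.84, 0.57 and 0.9 in Parental (4.24). SEPP1, the selenium carrier selenoprotein P, was 32.8, 27.7 and 27.2 TPM in IDH1R132H, against 0.33, 0.96 and 0.92 in Parental (4.14). TSSC2, a transcribed pseudogene, was 42.8, 38 and 42.4 TPM in IDH1R132H, against 0.62, 0.21 and 1.14 in Parental (4.70). In these the groups did not overlap. RP11-138I17.1 and another symbol known by a clone name stood at 13.8, 12.2 and 17.4 TPM and at 25.1, 25 and 26.9 TPM in IDH1R132H, and both were listed at 0 in the 3 Parental libraries. SNORD100, a small nucleolar RNA, was 92.6, 53.7 and 66.8 TPM in IDH1R132H, against 0, 48 and 0 in Parental. Its values were uneven within Parental, and the call was lost without IDH1R132H replicate 1 or 3, without Parental replicate 1 or 3, with no filter and when only the compared groups were fitted.

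Other symbols were among the 12 largest falls. FAM178B was 1.95, 2.28 and 3.37 TPM in IDH1R132H, against 62.5, 46.4 and 62.8 in Parental (−4.05). RHOB, a small GTPase, was 0, 0.08 and 0.05 TPM in IDH1R132H, against 16.5, 13.6 and 17.2 in Parental (−4.00). GALNT14, which starts O-linked glycosylation, was 0, 0 and 0.14 TPM in IDH1R132H, against 15.5, 15.5 and 14.2 in Parental (−3.94). FAM83A was 3.09, 5.08 and 3.26 TPM in IDH1R132H, against 74.3, 61.9 and 69.9 in Parental (−3.88). All Parental libraries were the higher ones. For APOC2, the cofactor of lipoprotein lipase, all 3 IDH1R132H libraries were listed at 0, against 15.5, 15.7 and 15.4 TPM in Parental. FAM178B averaged 0.923 TPM in IDH2R140Q, 1.06 TPM in IDH2R140W and 2.24 TPM in IDH2R172K, so it was low in every edited line, whereas APOC2 averaged 0.18 TPM in IDH2R140Q, 30.5 TPM in IDH2R140W and 16.7 TPM in IDH2R172K. MIR1182, a microRNA gene, was likewise listed at 0 in IDH1R132H, against 31.9, 30.8 and 21 TPM in Parental, and poly(A) libraries need not measure the microRNA.

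The largest differences from the IDH2 lines that also held against Parental and lay outside all 12 other libraries brought in further genes. RP5-921G16.1, known by a clone name, was 53.6, 55.3 and 53.6 TPM in IDH1R132H, against 20.4, 28.2 and 22.3 in Parental, and the IDH2 libraries held 0 to 9.65 TPM (4.61 ± 0.10, adjusted p = 2.33e-12). Against Parental its difference was 1.18, or 0.98 after median-ratio scaling. CSAG1, which stands on 2 rows, was 25, 24.1 and 28.4 TPM in IDH1R132H, against 9, 11.8 and 10.8 in Parental and averaged 0 TPM in IDH2R140Q, 0.35 TPM in IDH2R140W and 11.6 TPM in IDH2R172K (3.40). Its call against Parental was lost with a pseudocount of 0.1 (adjusted p = 0.0635). ADCYAP1, the neuropeptide PACAP, was 0.49, 1.09 and 0.74 TPM in IDH1R132H, against 19.4, 12.5 and 18.7 in Parental and averaged 7.08 TPM in IDH2R140Q, 39.8 TPM in IDH2R140W and 2.85 TPM in IDH2R172K (−2.62). GPR85, an orphan receptor, was 0.85, 0.81 and 0.5 TPM in IDH1R132H, against 3.9, 5.54 and 7.42 in Parental and averaged 14.7 TPM in IDH2R140Q, 8.97 TPM in IDH2R140W and 6.52 TPM in IDH2R172K (−2.62). AE000661.37 and HLA-DRB3$0301 were lower in the same way (−2.23 and −2.50), and HLA-DRB3$0301 stands on 2 rows.

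**Figure D4:**
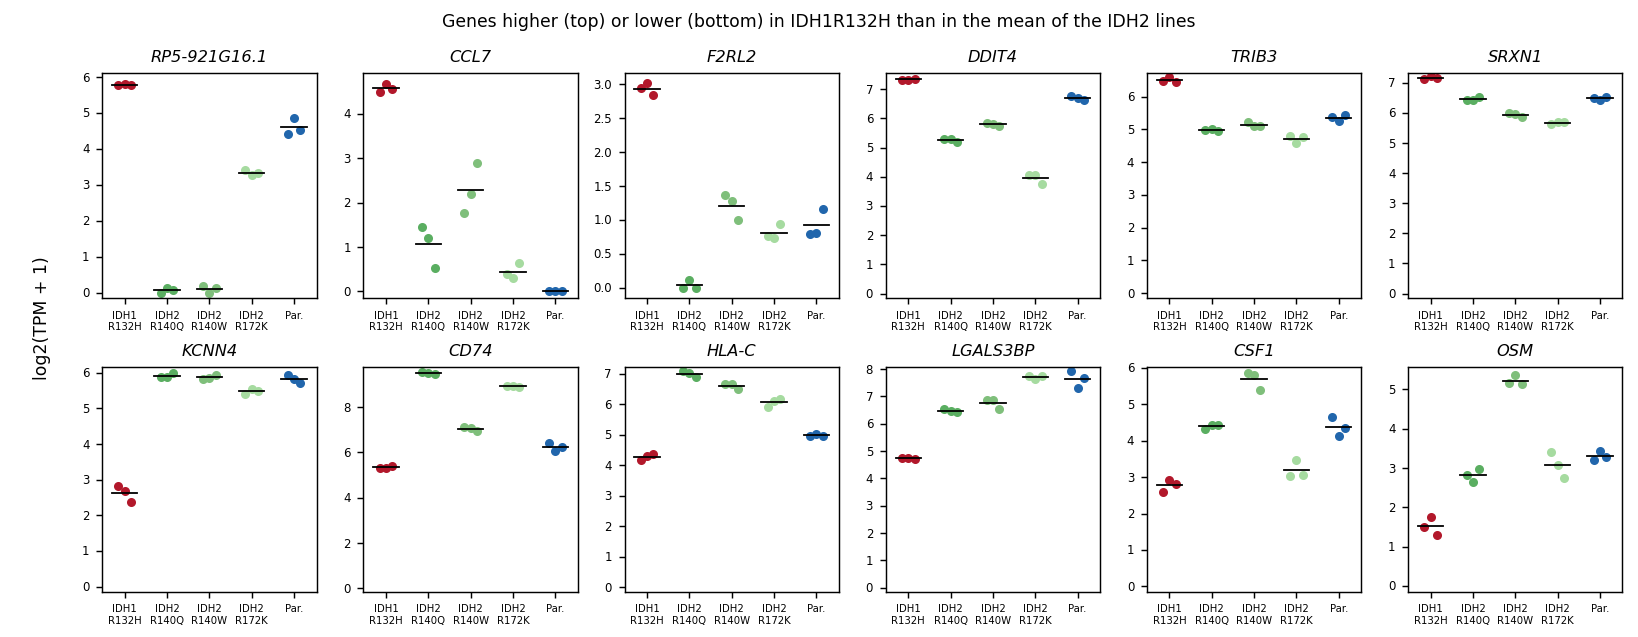
Points are single libraries and bars are group means in log2(TPM + 1), with groups from IDH1R132H over the IDH2 lines to Parental (Par.). In the top row IDH1R132H lies above every other library for each gene, and in the bottom row it lies below every other library for each gene.

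By chromosome, coding genes of chromosome 20 stood 0.35 above all other coding genes in IDH1R132H against Parental, with 55 of 324 higher and 8 lower. Those of chromosome 19 stood 0.15 above, with 139 of 963 higher and 28 lower. Chromosomes 18 and 7 stood lowest, at −0.16 and −0.14. Relative to the IDH2 lines chromosome 20 was at 0.14, chromosome 19 at 0.00 and chromosome 10 highest at 0.19. MMP9, CD40, TRIB3, E2F1, SRXN1 and UBE2C, higher in the comparisons above, lie on chromosome 20, as do ID1 and TPX2, which fell. Copy number was not tested.

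**Figure D5:**
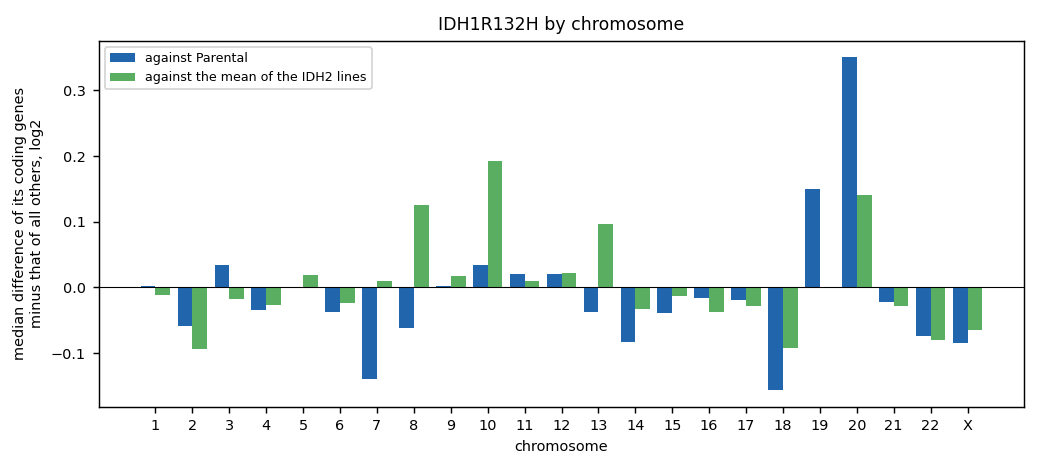
Bars give, for the protein-coding genes of each chromosome, the median log2 difference minus that of all other chromosomes, against Parental (blue) and against the mean of the IDH2 lines (green). Chromosome 20 reaches 0.35 against Parental and 0.14 against the IDH2 lines.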

How the data were processed

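The authors deposited a single table in TPM, that is, abundance corrected for transcript length and library total, with 1 column per library. HTSeq, RSEM, DESeq2 and STAR 2.7.3 appear in the submitters' processing notes, as does the build hg38, and no roles are assigned. Annotation release and strand setting were not given in the sources used here. TPM keeps no read number, so depth and the precision it gives are unknown. Per the labels' protocols, RNA was poly(A)-selected.

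Rows of 1 symbol were summed (63568 rows, 56624 symbols, 6 ambiguous date-like rows left out). Symbols with at least 1 TPM in at least 3 of 15 libraries, 14881 in all, were fitted as log2(TPM + 1) with limma 3.58.1 in R 4.3.3, with 1 mean per group and a variance trend. All p-values were adjusted by Benjamini-Hochberg over these symbols. The fit was also run on simulated data with independent normal noise, and no result here rests on that run. Groups came from the genotype in the labels. Coordinates and gene types came from GENCODE 29, which matched 12501 symbols, and promoters from RefSeq (GRCh38.p14). No protein sequence was used here.

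Named genes are IDH1 and IDH2, then the top 12 rises and top 12 falls whose groups do not overlap and whose higher group averages 10 TPM or more. Added to these are the top 8 each way that also differed from the IDH2 lines and lay outside all 12 other libraries, and members of 41 gene lists. Some of these genes are not reported here. Members and lists were chosen with earlier results of these data known. Some genes, such as SPARC, TGFB1, LTBP1 and OSM, stand in more than 1 list, so list counts are not independent. The fit was repeated with a different pseudocount, with 2 other filters on low values, after median-ratio scaling or quantile normalisation, with only the compared groups, with no variance trend, with the replicate number as a block, without symbols on several rows, with no minimum difference, and without each library in turn.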

Additional observations from a re-analysis of the deposited data

Results flagged for a closer look

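For 19 of the 23 symbols reported for the largest differences from Parental, the IDH1R132H line also differed from the mean of the IDH2 lines, by the limma contrast between them at an adjusted p under 0.05 and at least 2-fold. Over all symbols tested, 2.66% were called higher and 1.92% lower than that mean. The values here are that second log2 difference, IDH1R132H minus the IDH2 mean. Both comparisons use the same IDH1R132H libraries, and the symbols were picked for large differences in them. The count of 19 is therefore partly set by that choice and is not a result. Among rises, MS4A2 was 3.94, a clone-named symbol 3.89, TSSC2 3.82, RP11-138I17.1 3.56, CCL7 3.32, GRID1 3.16, SEPP1 3.07, ITGA8 2.74, BMPER 2.31 and MMP9 1.69. Among falls, MIR1182 was −4.08, HBB −3.78, APOC2 −3.10, HBE1 −1.96, RHOB −1.95, HBG1 −1.89, HBG2 −1.80, GALNT14 −1.51 and KCNH2 −1.42. Not all of these held against each IDH2 line. IDH2R140Q lay below IDH1R132H for HBG1, HBG2 and KCNH2 and overlapped it for HBE1 and APOC2, IDH2R172K overlapped it for GALNT14 and BMPER, and for MIR1182 one IDH2R172K library was listed at 0, as in IDH1R132H. Without overlap, other lines also came near. MMP9 averaged 22.8 TPM in IDH2R140Q against 25.6 TPM in IDH1R132H, and RHOB 0.597 against 0.0433 TPM. In IDH2R172K GRID1 averaged 37.7 TPM against 58.9 TPM in IDH1R132H, and TSSC2 21.5 against 41.1 TPM.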

How the results depend on the processing

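Against Parental, quantile normalisation called 766 symbols higher and 709 lower, and with no minimum difference 4485 and 2034 passed. Against the IDH2 lines a pseudocount of 0.1 called 655 higher and 523 lower, and with no minimum difference 2794 and 2087 passed. Leaving out 1 library gave 967 to 1372 higher and 447 to 487 lower against Parental, and 372 to 416 higher and 275 to 301 lower against the IDH2 lines. IDH1 stayed lower with an adjusted p under 0.05 under every alternative run (−0.96 to −0.87 with a library left out), and past 2-fold only after the 2 scalings. The IDH2 difference was −0.21 after median-ratio scaling (limma adjusted p = 0.0324, and up to 1 under the other alternatives), and without 1 library ran from −0.074 to 0.040, with 0.040 without IDH1R132H replicate 3 and 0.031 without Parental replicate 3. Same-numbered replicates of IDH1R132H and Parental did not deviate together (correlations 0.048, 0.05 and −0.049). With 3 libraries a group this cannot show whether they shared a culture or a preparation, which was not tested. With the replicate block 1148 symbols were higher and 462 lower against Parental, and 396 and 284 against the IDH2 lines. Of 214 single results 34 lost the call under at least 1 alternative, and 38 of 82 list counts moved. The 214 include genes not called in the main fit, which had no call to lose. In 15 single-gene alternatives such a gene passed the limits for a call. Uncalled genes changed sign as follows. After median-ratio scaling CBS was −0.031, CDKN1A −0.026 and MKI67 −0.18, and after quantile normalisation CDKN1A was −0.055 and MKI67 −0.15. With 1 library left out MKI67 ran from −0.26 to 0.20, below 0 without IDH1R132H replicate 1 or Parental replicate 2, and MYB from −0.19 to 0.041, above 0 without Parental replicate 1. The cause was not tested. Low values limit precision, since depth is unknown.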
